A study of Mus musculus with 60 samples.

Results

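The female reproductive tract was represented by 4 of the 60 libraries in a survey of 15 tissues, and its members were chosen by the tissue label alone. Every library came from a female C57BL6/J mouse 6 weeks of age, perfused through the heart with saline and EDTA, with no treatment or genetic change in any group. The 4 tract libraries were compared with 4 libraries each of blood, bone marrow, brain, colon, heart, inguinal lymph node, kidney, liver, lung, mesenteric lymph node, skin, small intestine, spleen and thymus. The labels give neither the organs that were cut out as the tract nor the stage of the oestrous cycle. For blood they disagree: the tissue label is whole blood, while the titles and the design text name peripheral blood mononuclear cells, so levels of neutrophil and red cell genes in blood depend on which it was. The labels describe replicates of mice, and do not say whether a replicate number follows 1 mouse through all tissues. The assay counts the 3' end of each transcript, so levels are compared between libraries and not between genes, and they are given as CPM (counts scaled to a common library size, with TMM factors).

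The mouse tract joins organs of several origins. The ovary holds oocytes surrounded by granulosa cells, which make inhibins and oestrogen, and theca and luteal cells, which turn cholesterol into steroid hormones. The oviduct, uterus and upper vagina develop from the Mullerian duct under transcription factors such as Emx2, Pax2, Pax8 and Hox genes of the posterior groups. Oestrogen and progesterone act through nuclear receptors in the epithelium, stroma and muscle of the uterus, and oestrogen raises secreted defence proteins in the uterine epithelium and drives the squamous epithelium of the vagina to stratify.

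The label was checked against 3 marker genes. Akr1cl, an aldo-keto reductase family gene (ENSMUSG00000025955, GRCm38 chromosome 1, 65012689 to 65032759), stood at 293, 331, 206 and 208 CPM in replicates 1 to 4. Padi1, a peptidylarginine deiminase (ENSMUSG00000025329, chromosome 4, 140812983 to 140845778), stood at 62.5, 42.4, 216 and 253 CPM. Hoxa10, a transcription factor that patterns the uterus (ENSMUSG00000000938, chromosome 6, 52231197 to 52240854), stood at 75.4, 66.6, 70.6 and 52.7 CPM. For Akr1cl and Padi1 every tract library was above all 56 others, whose highest values were 14.6 and 1.48 CPM. Hoxa10 averaged 54.2 CPM in kidney and 37.3 CPM in colon, and in pairwise tests the tract was called higher than the other 12 tissues only.

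The 4 tract libraries were unequal before any comparison was made. Replicates 1 and 2 held 2851576 and 3134683 counts, replicate 4 held 1028920 and replicate 3 only 353605, so that 3 counts were worth 8.48 CPM in replicate 3 and 0.957 to 2.92 CPM in the others. Spearman's rho of log2(CPM + 1) over the tested genes was 0.979 between replicates 1 and 2 and 0.866 to 0.918 for each of the other pairs. The median SD of log2(CPM + 1) was 0.512 in the tract and 0.190 to 0.333 in the other tissues. Mitochondrial ribosomal RNA took 12.3%, 15.4%, 8.29% and 19.9% of the counts of replicates 1 to 4, and nuclear protein-coding genes 80.5%, 77.6%, 81.5% and 73.6%. Mitochondrial protein-coding genes took 2.51%, 2.50%, 0.784% and 0.332%, against 0.488% to 16.8% in the other 56 libraries, and the nuclear RNA Malat1 took 1.65% in replicate 4 and 1.05% to 1.18% in the other tract libraries. Replicates 3 and 4 thus both had a smaller share of mitochondrial protein-coding genes than replicates 1 and 2, while the other shares did not split the libraries in this way. They also differed from replicates 1 and 2 in some epithelial and ovarian genes below, and the part of RNA quality in those differences was not tested. In bulk tissue fewer cells of a type and less RNA per cell cannot be told apart, and levels below are therefore given for each library.

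Of 18562 tested genes, 4284 (23.1%) were called higher in the tract than in the equally weighted mean of the other 14 tissues, and 986 (5.31%) were called lower. All counts of called list members below are to be read against these shares. Calls required an adjusted p under 0.05 together with a log2 fold change beyond 1 in size (quasi-likelihood F test in edgeR, Benjamini-Hochberg over all tested genes). When libraries were scaled by their totals without TMM the split became 6051 higher and 411 lower, and the share of calls that were higher moved from 81.3% to 93.6%, with the median of all genes shifted by 0.456 on the log2 scale. The mean of the other tissues is a mean of log levels, so a gene can be called higher while a single tissue lies far above the tract. The tract mean was the highest of the 15 tissues for 627 (14.6%) of the genes called higher. At least 1 other tissue had no read of the gene for 2340 (54.6%) of them, against 5438 (29.3%) of all tested genes, and there the fitted fold change depends on a prior count and is neither a size nor a bound. A further 909 tested genes had no read in the tract and in at least 1 other tissue and could not be called lower by this test.

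In 14 pairwise tests of the same fit, 157 genes (0.846%) were higher in the tract than in each of the other tissues. Every tract library was above all 56 others for 138 genes (0.743%), all also called higher than the mean of the tissues. Every tract library was below all others for 16 genes (0.0862%), of which 11 were called lower.

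The naming rule picked 15 leading genes, those with the largest fold change among genes of at least 50 CPM whose tract libraries were all above the 56 others. List members beyond those the rule picks are named below for their known role, and were chosen after their values were seen. Sprr2f, a small proline-rich gene of the uterine epithelium (chromosome 3, 92365187 to 92366442), reached 21.3, 8.38, 51.9 and 2982 CPM, and no other tissue averaged above 0.157 CPM. Its 4 tract values were spread most widely of the 15. Rxfp1, the relaxin receptor (chromosome 3, 79641611 to 79737880), reached 198, 167, 123 and 68.1 CPM, followed by brain at 10.8 ± 2.21 (SD, n = 4). Cyp11a1, which makes the first steroid from cholesterol (chromosome 9, 58006411 to 58027023), reached 153, 152, 247 and 259 CPM, followed by kidney at 20.4 ± 39.3, where a single library stood at 79.3. Ovgp1, the secreted oviductal glycoprotein (chromosome 3, 105973711 to 105987423), reached 159, 226, 208 and 333 CPM, followed by blood at 5.42 CPM. All 4 of these genes were above every other tissue in each tract library.

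Pgr, the progesterone receptor (chromosome 9, 8899833 to 8968611), was measured at 221, 151, 174 and 64.7 CPM, against 28.04 ± 2.36 in brain. Inha, the alpha subunit of the inhibins (chromosome 1, 75507077 to 75510366), was measured at 263, 270.1, 118 and 44.2 CPM, against 18.7 ± 3.67 in brain. Dio2, which activates thyroid hormone (chromosome 12, 90724552 to 90738438), was measured at 265, 122, 233 and 199.9 CPM, against 55.4 ± 7.92 in brain. Inha and Pgr were lowest in replicate 4, and Dio2 was lowest in replicate 2.

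Col6a4, a collagen VI chain, was present at 308, 319, 598 and 607 CPM against 48.3 ± 5.50 in small intestine. A2m, a broad inhibitor of proteases, was present at 82.9, 70.8, 145 and 65.5 CPM against 11.1 ± 3.23 in brain. Bcat1, a branched-chain aminotransferase, was present at 119.7, 176, 149.5 and 197 CPM against 57.5 ± 2.35 in brain. The anion exchanger Slc26a7 stayed between 39.5 and 62.9 CPM, Plekhs1 between 38.3 and 114 CPM, and the mitochondrial carrier Slc25a48 between 35.6 and 166 CPM. Slc25a48 was highest in replicate 3, with kidney next at 29.7 ± 2.25. Over the 15 genes the edgeR adjusted p was 4.58e-13 for Sprr2f and smaller for the rest. The rule picked these genes by their calls, fold changes and separation in the same data, so small p-values follow from it and are no further support. Padi1, Akr1cl, Col6a4, Bcat1 and Dio2 overlap annotated transcripts on the opposite strand, and with no strand setting stated for the counting, reads of a gene and of such a neighbour cannot be told apart.

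**Figure D1:**
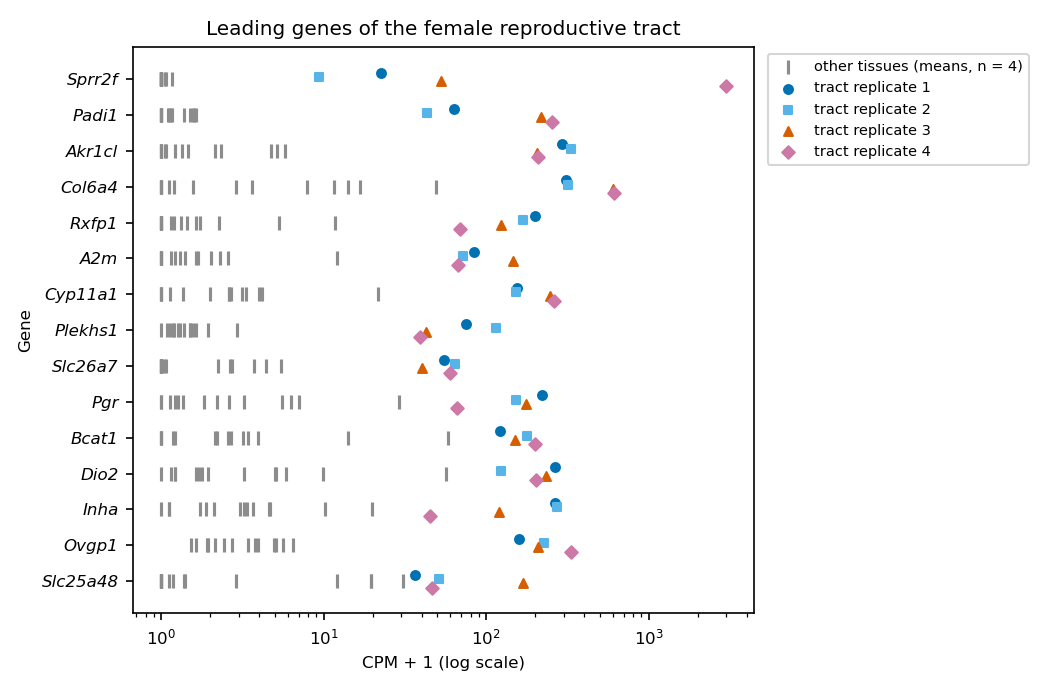
Level of each of the 15 leading genes as CPM + 1 on a log axis, with 1 coloured symbol for each of the 4 tract libraries and a grey tick for the mean of 4 libraries of each other tissue. All tract symbols lie to the right of the grey ticks, and Sprr2f spans 8.38 to 2982 CPM among the tract libraries.

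Hox genes mark position along the body axis, and the order of groups 9 to 13 follows the tract from oviduct to vagina. Among 10 Hox genes of clusters A and D, 9 were tested and 8 were called higher in the tract, against 23.1% of tested genes. Hoxa9 stood at 39.02, 41.9, 41.5 and 31.5 CPM, below kidney (60.2 CPM). Hoxa11 stood at 45.3, 37.3, 14.5 and 28.1 CPM, above colon (8.86 CPM) in every library, and some of its reads may come from an antisense transcript. Hoxd11 stood at 28.1, 23.3, 31.1 and 25.5 CPM, above kidney (6.27 CPM) in every library. These last 2 genes were higher in the tract than in each of the other 14 tissues. Hoxd9 and Hoxd10 averaged 34.96 and 34.3 CPM beside 34.5 and 23.3 CPM in kidney, and Hoxd8 averaged 43.98 CPM beside 184 in kidney.

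The most posterior genes differed from these. Hoxa13, the group 13 gene of cluster A, stood at 0.970 and 0.698 CPM in replicates 1 and 2 and had no read in replicates 3 and 4, while colon averaged 23.5 CPM. It was called higher than the mean of the tissues (edgeR adjusted p = 4.78e-05), with 13 tissues nearly without reads, and the call was lost with DESeq2's Wald test (adjusted p = 0.565). Hoxd12 and Hoxd13 had no read in any tract library, which allows up to 0.298 CPM over the 4 libraries (3 counts, counting error only). Colon averaged 20.99 CPM for Hoxd13. The tract libraries therefore carried groups 9 to 11 at 14.5 to 75.4 CPM in each library and the group 13 genes at or near the limit of the counts.

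Transcription factors and signals of the Mullerian duct were higher in the tract in 15 of 16 members. Their median ratio of tract mean to the arithmetic mean of the other tissues was 2.62 on the log2 scale, against -0.47 for all tested genes. Msx1, a homeobox gene of the uterine epithelium, stood at 148, 165, 74.8 and 26.4 CPM, and the next tissue was inguinal lymph node at 8.03 CPM. Wnt5a, a signal from the uterine stroma, stood at 103, 78.9, 143 and 78.3 CPM, and kidney followed at 16.1 CPM. Wt1, a factor of the gonad and its surface, stood at 90.9, 107, 33.2 and 63.8 CPM, and spleen followed at 28.5 CPM. These 3 genes were higher than in each of the other tissues. Emx2 (86.8, 85.4, 45.7 and 22.97 CPM), Pax2 (20.1, 27.7, 22.8 and 12.8 CPM) and Pax8 (28.8, 40.98, 20.8 and 85.1 CPM) were shared with kidney, which averaged 52.5, 43.3 and 81.2 CPM. Lhx1, an early gene of the duct that the kidney also uses, had no read in the tract and averaged 40.9 CPM in kidney.

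**Figure D2:**
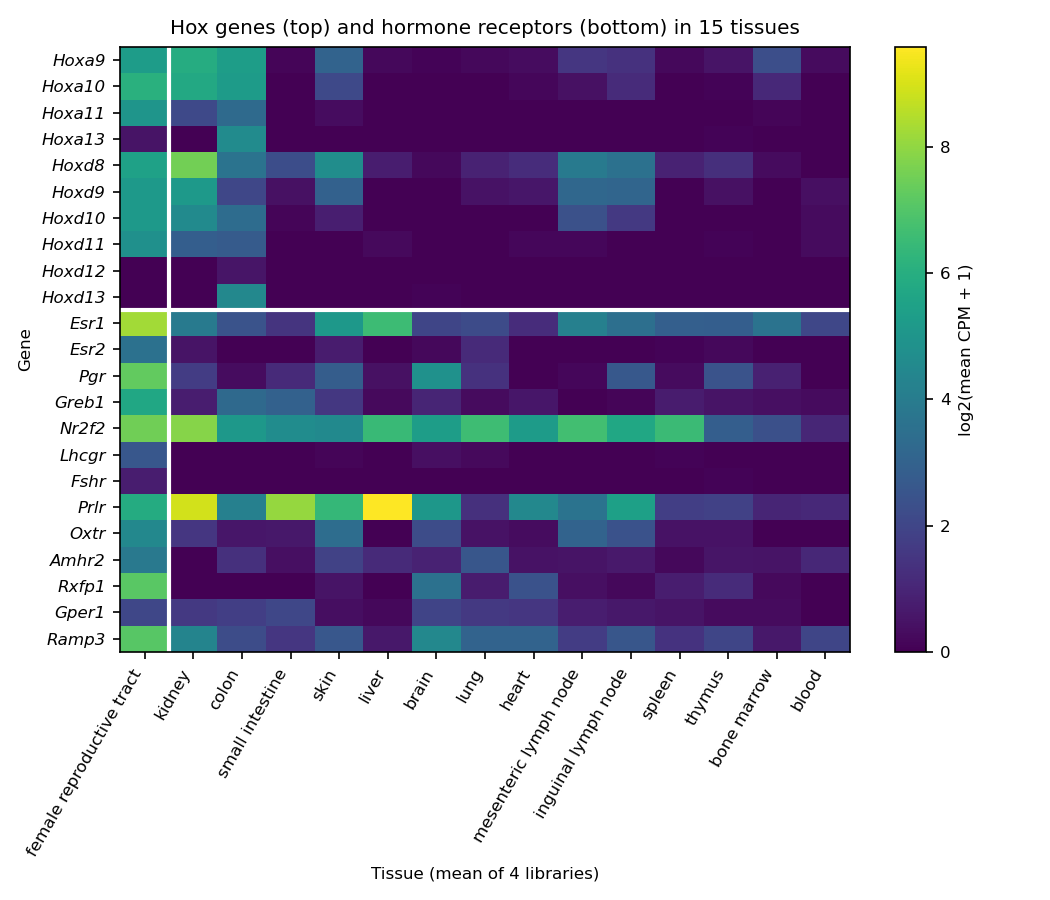
Colour gives log2(mean CPM + 1) over 4 libraries in each of 15 tissues (columns) for 10 Hox genes above the white line and 13 hormone receptors and cofactors below it. The tract column is filled from Hoxa9 to Hoxd11 and nearly empty at Hoxa13, Hoxd12 and Hoxd13, and kidney and colon share much of the Hox pattern.

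Receptors for reproductive hormones and their cofactors were all higher where they could be tested. Of 14 genes, 11 were tested, all 11 were called higher, and the tract mean was the highest of the 15 tissues for 9 of them. Esr1, the oestrogen receptor alpha (chromosome 10, 4611593 to 5005614), stood at 354, 329, 268 and 262 CPM, and liver followed at 94.0 CPM (log2 fold change 5.38 ± 0.15 SE, edgeR adjusted p = 1.4e-37). It was even across the 4 libraries, which all lay above every other library of the series. Greb1, an oestrogen-induced cofactor of Esr1, stood at 68.8, 66.1, 45.7 and 22.97 CPM, and colon followed at 8.74 CPM. Esr2, the second oestrogen receptor and known from granulosa cells, stood at 16.97, 17.7, 8.31 and 0.851 CPM and was too low to be tested.

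The gonadotropin receptors were low. Lhcgr, the receptor for luteinizing hormone, was between 2.08 and 8.15 CPM, and Fshr, the receptor for follicle-stimulating hormone, reached 0.969 and 1.86 CPM in replicates 1 and 2 and had no read in the other two. Neither passed the filter on low counts. Amhr2, the receptor for anti-Mullerian hormone, was between 12.4 and 17 CPM, and lung followed at 4.85 CPM. Oxtr, the oxytocin receptor of uterine muscle, was between 11.1 and 33.2 CPM, and skin followed at 9.85 CPM. Ramp3, a partner of receptors for adrenomedullin, was at 51.1, 53.6, 386 and 45.1 CPM, and its high value in replicate 3 set its mean. Without that replicate its log2 fold change fell from 5.03 to 3.91. Prlr, the prolactin receptor, averaged 57.7 ± 9.92 CPM (SD, n = 4), below liver at 763 CPM. Gper1, a membrane receptor for oestrogen, averaged 3.14 ± 2.11 CPM, and Nr2f2, a nuclear receptor of the uterine stroma, averaged 182 ± 38.5 CPM, below kidney at 225 CPM.

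Granulosa cell genes were higher in the tract in 11 of 13 tested members, against 23.1% of all tested genes. Foxl2, Amh and Hsd17b1 were so low elsewhere that they could pass the filter only through the tract, so their calls add no support. Foxl2, the transcription factor that maintains granulosa cells, stood at 55.02, 42.6, 22.8 and 39.1 CPM, and no other tissue averaged above 1.00 CPM. Hsd17b1, which makes oestradiol, stood at 26.9, 26.5, 4.15 and 5.10 CPM, and spleen followed at 1.05 CPM. Inhbb, the inhibin beta B chain, stood at 81.7, 63.3, 104 and 39.99 CPM, and skin followed at 12.4 CPM. Amh, anti-Mullerian hormone of growing follicles, stayed between 6.23 and 9.45 CPM. Cyp19a1, the aromatase, was at 2.42, 3.26, 0 and 0.851 CPM and was not tested. Inha, Hsd17b1, Foxl2 and Amh were lower in replicates 3 and 4 than in replicates 1 and 2, while Inhbb was highest in replicate 3. The summed level of the 15 granulosa genes was 814, 794, 523 and 327 CPM, beside 1523 CPM in kidney and 643 CPM in brain, so the sum does not mark the tract.

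Genes of steroid-making cells were higher in 10 of 12 tested members. The 10 include Akr1cl, which was also a marker used to check the label. The tract mean was above that of every other tissue for only 3 of the 12. The summed level of the list was 1107, 1234, 785 and 847 CPM in replicates 1 to 4. Liver (1849 CPM) and kidney (1042 CPM) were above the tract mean of 993 CPM, so the sum does not mark the tract. Hsd3b1, a steroid dehydrogenase with close copies in the genome that can split its reads, stood at 239, 314, 43.6 and 74.02 CPM, and kidney followed at 31.1 ± 57.9 CPM, where 1 library at 118 CPM was above tract replicates 3 and 4. Cyp17a1, the enzyme that makes androgens in theca cells, stood at 85.1, 70.8 and 22.8 CPM in replicates 1 to 3 and had no read in replicate 4, while liver averaged 365 CPM. Nr5a1, the regulator of steroid synthesis, stood at 26.4, 22.8, 0 and 6.81 CPM, beside 16.4 CPM in spleen. Star, which carries cholesterol into mitochondria, was even at 20.8 to 34.2 CPM but lay below spleen at 89.4 CPM. Insl3, a hormone of theca cells, did not exceed 0.931 CPM. Cyp11a1 did not follow Cyp17a1, since it was highest in replicate 4 (259.5 CPM).

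Oocyte genes were rare but present. Of 20 genes only 5 passed the filter on low counts. All 5 were called higher, but Zp2, Zp3 and Padi6 were so low elsewhere that they could pass the filter only through the tract, so this count is no support. With no filter 19 of the 20 were called higher, against 6768 of 37138 genes in that setting. With so few reads of these genes in other tissues, those fold changes depend on the prior count and add no support either. Zp3 and Zp2, which form the coat of the egg, stood at 9.94, 8.38, 10.4 and 5.96 CPM and at 9.69, 5.82, 4.15 and 3.40 CPM. No other tissue averaged above 0.881 CPM for either gene, although the call of Zp3 was lost with DESeq2's Wald test (adjusted p = 0.0779). Padi6, an oocyte member of the deiminase family, stood at 7.27, 11.2, 4.15 and 3.40 CPM. Nlrp14, a maternal factor of the egg, stood at 7.51, 9.55, 2.08 and 4.25 CPM and had no read in any other tissue. Gdf9, a growth factor from the oocyte, stood at 12.6, 11.4, 2.08 and 10.2 CPM. The early regulators Figla, Nobox and Sohlh1 did not exceed 1.45 CPM. Summed over the list, oocyte genes reached 99.1, 91.0, 45.7 and 37.4 CPM, all above the highest library of another tissue (10.7 CPM).

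Secretory cells of the oviduct were represented by Ovgp1, Pax8, Pax2 and Wnt7a, and all 4 were called higher. Wnt7a, an epithelial signal of the duct, stood at 19.1, 14.9, 24.9 and 2.55 CPM, close to brain at 16.9 CPM. Genes of multiciliated cells, which line the oviduct and also the airways, were called higher in 16 of 16 tested members. Another tissue was above the tract mean for each of the 17 genes, and it was lung for 14 of them. Ccdc153, a ciliary coiled-coil gene, stood at 11.4, 17.9, 16.6 and 9.36 CPM beside 78.4 CPM in lung. Foxj1, the regulator of motile cilia, stood at 10.4, 19.3, 2.08 and 7.66 CPM beside 103 CPM in lung. The list summed to 162, 206, 152 and 136 CPM in the tract and 955 CPM in lung, and the 4 tract libraries differed by less than in the simple and squamous epithelium lists below.

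**Figure D3:**
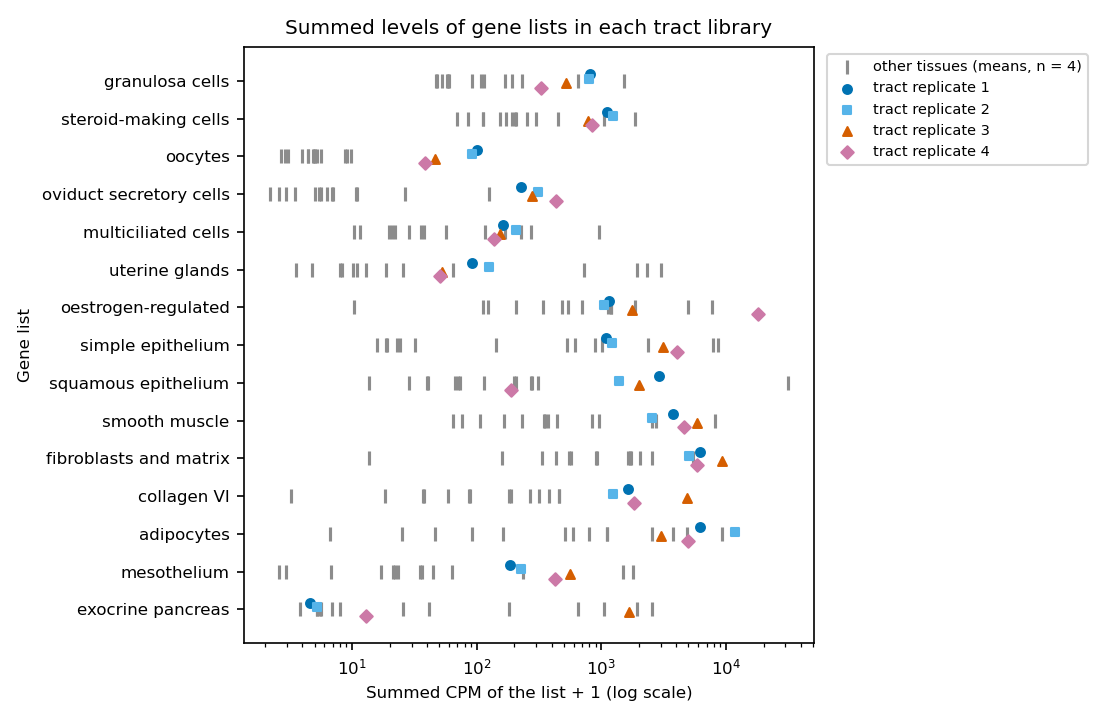
Summed CPM + 1 of 15 gene lists on a log axis, with 1 symbol for each tract library and grey ticks for the means of the other tissues. The libraries lie close together for multiciliated cells (136 to 206 CPM), replicate 4 stands apart for oestrogen-regulated genes (17923 CPM) and squamous epithelium (188 CPM), and replicate 3 for exocrine pancreas (1678 CPM).

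Epithelial lists differed widely among the tract libraries. A list of 16 genes known to respond to oestrogen in the uterine epithelium summed to 1152, 1058, 1776 and 17923 CPM in replicates 1 to 4. Of its 11 tested members 10 were called higher than the mean of the other tissues, against 23.1% of all tested genes. Sprr2f, Sprr2d and Padi1 were so low elsewhere that they could pass the filter only through the tract, so their calls add no support. Of the 14 members with a read in the tract, 11 were highest in replicate 4. Ltf, the iron-binding lactotransferrin, stood at 493, 247, 228 and 3065 CPM, beside 1909 CPM in bone marrow. Lcn2, a lipocalin that binds bacterial siderophores, stood at 125, 63.6, 679 and 6194 CPM, beside 2789 CPM in bone marrow. C3, the central complement protein, stood at 294, 526, 478 and 4589 CPM, beside 7656 CPM in liver. For these 3 genes replicate 4 stood several-fold above the next tract library.

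Without replicate 4 the log2 fold change fell from 6.99 to 4.19 for Lcn2, from 8.07 to 6.52 for Ltf and from 3.08 to 1.36 for C3, and all 3 genes were still called. Sprr2f was still called too, and with no read in 11 tissues its fold change is not a size. Muc1, a mucin of the epithelial surface, stood at 27.4, 22.1, 83.1 and 331 CPM. S100g, the calcium-binding calbindin of uterus and gut, went another way, with 82.2, 132, 8.31 and 50.2 CPM. Aqp5, a water channel of the uterine epithelium, stood at 5.82, 3.73, 10.4 and 27.2 CPM. Clca3a1 (5.11 to 8.31 CPM) was tested and not called.

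The Sprr2 genes, which encode small proteins of the cell envelope, lie side by side on chromosome 3 and are near-identical in places, so that reads may be assigned to the wrong copy or lost. Sprr2b stood at 0.727, 0.233, 0 and 220.3 CPM, Sprr2g at 3.39, 1.16, 4.15 and 80.8 CPM, and Sprr2a3 at 3.88, 0.466, 2.08 and 96.99 CPM. Sprr2d differed from these, with 26.4, 4.19, 6.23 and 26.4 CPM, and Sprr2e reached only 2.55 CPM in replicate 4. Sprr2a3 was also a gene of the colon (311 CPM), while for Sprr2d no other tissue averaged above 0.336 CPM. The promoters of 4 members that had reads in the tract are shown because they share 2 motifs at a similar distance from the start. Each line gives the 250 bases before the transcription start (RefSeq, GRCm38.p6, plus strand), with matches in capitals to TGAGTCA, the site of AP-1 factors, and then to ATTTGCAT, the octamer bound by POU factors.
Sprr2f, chr3:92364937-92365186: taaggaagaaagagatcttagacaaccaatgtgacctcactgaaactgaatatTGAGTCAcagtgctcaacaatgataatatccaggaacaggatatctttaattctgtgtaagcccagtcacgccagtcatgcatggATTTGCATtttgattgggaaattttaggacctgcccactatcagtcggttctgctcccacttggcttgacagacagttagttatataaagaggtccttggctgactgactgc
Sprr2e, chr3:92351893-92352142: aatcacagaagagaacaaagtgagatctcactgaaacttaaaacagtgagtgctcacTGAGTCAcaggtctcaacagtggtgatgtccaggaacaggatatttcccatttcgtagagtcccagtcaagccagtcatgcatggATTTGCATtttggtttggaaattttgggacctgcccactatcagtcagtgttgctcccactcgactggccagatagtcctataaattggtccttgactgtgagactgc
Sprr2d, chr3:92338890-92339139: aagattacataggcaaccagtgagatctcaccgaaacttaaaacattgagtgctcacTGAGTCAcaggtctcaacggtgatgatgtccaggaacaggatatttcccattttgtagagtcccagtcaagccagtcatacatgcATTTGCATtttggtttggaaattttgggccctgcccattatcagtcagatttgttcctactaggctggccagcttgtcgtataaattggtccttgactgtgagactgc
Sprr2b, chr3:92316455-92316704: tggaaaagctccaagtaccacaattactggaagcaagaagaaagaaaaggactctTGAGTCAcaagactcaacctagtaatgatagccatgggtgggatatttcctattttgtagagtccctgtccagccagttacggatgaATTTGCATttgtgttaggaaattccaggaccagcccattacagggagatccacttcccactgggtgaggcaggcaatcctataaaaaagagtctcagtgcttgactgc

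The AP-1 match begins 193 to 197 bases before the start in these promoters, and the octamer 108 to 112 bases before it. Aligned to Sprr2f, the promoters of Sprr2e, Sprr2d and Sprr2b were 72.6%, 70.0% and 60.4% identical. Over both strands, each motif was found in 7 of the 10 Sprr2 promoters in the table, against 4.46% (AP-1) and 1.60% (octamer) of 32851 mouse promoter windows of the same length. Promoters of such similar neighbouring genes share sequence, so the 10 are not independent and these shares are no test of enrichment. The 7 also include Sprr2h, Sprr2i and Sprr2k, which had no read in the tract, and the 3 without either motif include Sprr2a3, which had 97.0 CPM in replicate 4. The oestrogen response element (GGTCA and TGACC with 3 bases between them) was in 0.0639% of all windows and was not found in these 250 bases for any of 15 oestrogen-list genes with a promoter in the table. A motif this rare would seldom be met in 15 windows, so no conclusion is drawn from its absence. Matches are letters in a window, and binding was not measured.

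Mucosal defence genes, a list that shares members such as Ltf and Lcn2 with the oestrogen list, summed to 1524, 1453, 2866 and 16990 CPM in replicates 1 to 4, and 9 of 13 tested members were called higher. Wfdc2, a secreted protease inhibitor of epithelia, stood at 331, 344, 1173 and 1404 CPM, beside 1105 CPM in lung. Muc4, a membrane mucin, stood at 14.3, 8.85, 14.5 and 138 CPM, beside 84.2 CPM in colon. Pigr, which carries antibodies across epithelia, stood at 55.5, 23.98, 127 and 1048 CPM, beside 1820 CPM in liver. Lyz2, the lysozyme of macrophages and lung, was the 1 member called lower, with 64.7 to 162.5 CPM beside 5794 CPM in lung. Bpifa1, an airway secretion, had no read in the tract.

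Prap1, an acidic secreted protein of uterus and gut, stood at 10.9, 329.7, 10.4 and 5324 CPM, beside 972 ± 402 CPM in small intestine. Aoc1, an enzyme that degrades histamine, stood at 4.605, 5.12, 10.4 and 284 CPM, and Ptgs2, an inducible prostaglandin synthase, at 2.67, 1.86, 0 and 198 CPM. Without replicate 4, Aoc1 and Ptgs2 were no longer called (log2 fold changes 0.97 and 0.98, edgeR adjusted p = 0.0269 and 0.0643). General epithelial genes were less uneven. All 12 genes of simple columnar epithelium were called higher, and they summed to 1088, 1208, 3113 and 4039 CPM. Colon (8649 CPM) and small intestine (7884 CPM) carried more of this list, and the tract mean was not the highest for any member. Elf3, an epithelial transcription factor, stood at 67.9, 94.8, 507 and 900.1 CPM, and the keratin Krt7 at 99.4, 70.8, 289 and 204 CPM. Both were higher in replicates 3 and 4 than in replicates 1 and 2.

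Squamous epithelium showed the reverse for replicate 4. The 21 genes, known from vagina, cervix and skin, summed to 2918, 1393, 1989 and 188 CPM, and 15 of them were lowest in replicate 4. Krt5 and Krt14, the paired keratins of the basal layer, stood at 774, 344, 120.4 and 10.2 CPM and at 893, 402, 837 and 11.1 CPM. Krt13, a keratin of moist squamous linings, stood at 219, 119, 289 and 19.6 CPM. Liver followed at 12.8 ± 25.7 CPM, where 1 library at 51.4 CPM was above tract replicate 4. Krt6a, a keratin of fast-growing epithelium with a close copy in Krt6b, stood at 374, 130.4, 91.4 and 0 CPM, beside 48.5 CPM in skin. Krt13 and Krt6a were higher in the tract than in each of the other tissues, and Krt5 and Krt14 were higher than in 13 tissues and lower than in skin (3812 and 1825 CPM).

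Late markers of skin were low in the tract. Lor, the main protein of the skin's cornified envelope, averaged 15.3 ± 23.2 CPM (SD, n = 4) beside 6247 CPM in skin, and Krt10, a keratin of the upper skin layers, averaged 32.3 ± 27.2 CPM beside 9096 CPM. Krt16 stood at 42.7, 10.01, 827 and 0 CPM, and replicate 3 alone exceeded 50 CPM. All 18 tested squamous genes were called higher than the mean of the tissues, yet the median log2 ratio of the tract mean to the arithmetic mean of the others was -1.14, since skin carries most of the reads. The skin libraries averaged 31257 CPM for the list. The median fold change and this ratio also differed in sign for uterine glands, progesterone-regulated genes, NK cells, mast cells, neutrophils, endothelium, dividing cells and the pancreas list, so their counts of higher genes say only that most tissues had less.

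**Figure D4:**
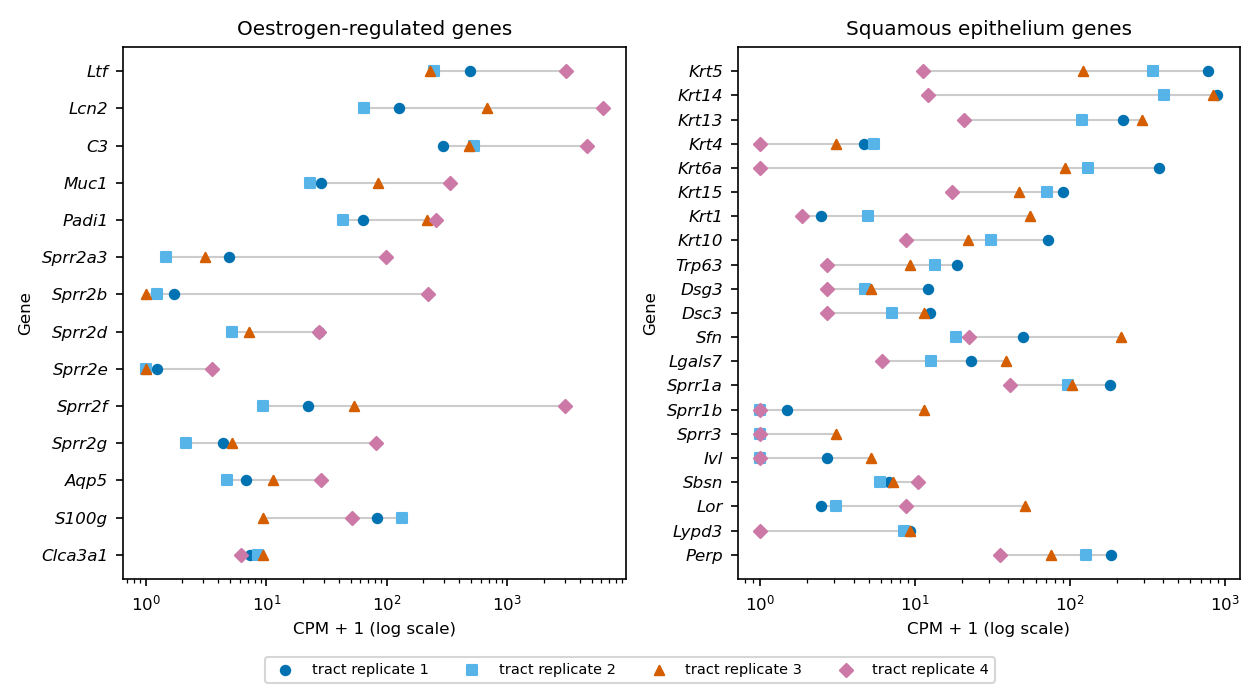
CPM + 1 on a log axis for 14 oestrogen-regulated genes with reads in the tract (left) and 21 squamous epithelium genes (right), with a symbol for each tract library and a grey line over their range. Replicate 4 is rightmost for 11 genes on the left and leftmost or tied at 0 for most genes on the right.

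Among genes of uterine glands, 4 of 5 tested members were called higher. Sox17, a factor of the uterine epithelium and also of vessels, stood at 72.2, 109, 20.8 and 24.7 CPM beside 48.0 CPM in lung. Foxa2, the regulator of the glands, was at 2.08 to 7.27 CPM, and the gland proteases Prss28 and Prss29 did not exceed 2.08 CPM. Lif, a signal from the glands, stood at 0.485, 0.698, 0 and 18.7 CPM. Progesterone-regulated genes were called higher in 5 of 8 tested members. Ihh, a progesterone-induced signal of the epithelium, stood at 20.1, 20.3, 0 and 1.70 CPM, and Areg, another such gene, had 1 read in replicate 2 and none in the other libraries. Hand2, a progesterone-dependent factor of the stroma, stood at 22.5, 21.2, 24.9 and 7.66 CPM, below heart at 61.5 CPM.

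All 14 smooth muscle genes were called higher than the mean of the tissues. Colon or heart was above the tract mean for 12 of them. Myh11, the smooth muscle myosin, stood at 675, 511, 1935 and 1061 CPM beside 1167 CPM in colon. Acta2, the smooth muscle actin, stood at 1269, 829, 1236 and 1519 CPM beside 1908 CPM in colon. Pgm5, a protein of muscle attachments, varied least, at 61.1 to 65.5 CPM. Tagln was at 62.3, 58.2, 76.8 and 254 CPM and was highest in replicate 4.

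All 15 genes of fibroblasts and matrix were called higher, and the tract mean was the highest of the 15 tissues for 8. Col1a1, the main fibrillar collagen, stood at 1037, 554, 2515 and 715 CPM beside 922 CPM in skin. Lum, a proteoglycan of fibrillar matrix, stood at 134, 134, 193 and 156 CPM beside 131 CPM in skin. Dcn, another such proteoglycan, stood at 1916, 1837, 619 and 1597 CPM beside 1631 CPM in skin. Replicate 3 was the highest library for 11 of the 15 genes, and Dcn was an exception.

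The chains of collagen VI, a network around cells, were examined after the leading genes had been seen. All 6 were called higher, and 5 of them were higher in the tract than in each of the other tissues. They summed to 1631, 1234, 4822 and 1838 CPM, against 507 CPM in the highest library of another tissue. Col6a1 stood at 581, 425, 916 and 442 CPM, Col6a2 at 526, 355, 2249 and 504 CPM, and Col6a3 at 171, 100.1, 922 and 237 CPM. Lung or colon followed, at 195, 169 and 103 CPM. Col6a6 stood at 42.2, 33.3, 127 and 46.8 CPM beside 9.07 CPM in heart, and Col6a5 at 1.70 to 10.4 CPM lay below inguinal lymph node (9.33 CPM) on average. The 5 chains apart from Col6a4 were highest in replicate 3, the shallowest library.

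Immune genes were lower in the tract than in a mean that holds blood, marrow, spleen, thymus and lymph nodes. For MHC class II, T cell and B cell genes some other organs had similar levels, while lung and small intestine had higher ones. All 7 MHC class II genes were called lower, against 5.31% of all tested genes, and they summed to 671, 765, 507 and 411 CPM. Colon (764 CPM), kidney (539.6 CPM), liver (418 CPM) and heart (289.9 CPM) were of the same order, and brain was at 31.02 CPM. Lung (2800 CPM), skin (2231 CPM) and small intestine (1824 CPM) stood higher. Cd74, the invariant chain, stood at 198, 239.6, 209.7 and 118 CPM beside 4581 CPM in blood, and was lower than in 9 tissues and higher than in 1. H2-Eb1, a beta chain, stood at 124, 156, 64.4 and 42.5 CPM. Only 3 of the 7 were called with library totals in place of TMM and 4 without replicates 3 and 4 (an alternative chosen after seeing the data).

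T cell genes were called lower in 9 of 12 members and summed to 20.8, 18.6, 56.1 and 33.2 CPM, with colon at 22.7, brain at 16.6, heart at 13.2 and kidney at 7.58 CPM. Skin (132 CPM), lung (123 CPM), small intestine (72.3 CPM) and liver (53.7 CPM) were above the tract mean of 32.2 CPM. B cell genes were called lower in 9 of 9 and summed to 8.97, 7.22, 16.6 and 11.9 CPM, with kidney at 10.6, skin at 8.83, heart at 8.34 and brain at 5.44 CPM. Lung (220 CPM), small intestine (55.6 CPM), colon (28.9 CPM) and liver (14.5 CPM) were above the tract mean of 11.2 CPM. Trbc2, a constant region of the T cell receptor, stood at 3.88, 5.36, 16.6 and 2.55 CPM. Of 11 macrophage genes 1 was called higher and 2 lower, and 3 of 11 is close to the 28.4% of all tested genes that were called. Csf1r, the receptor for macrophage growth factor, was lower at 15.3 to 32.1 CPM beside 262 CPM in spleen. Cd14, a receptor for bacterial lipopolysaccharide, was higher at 33.4, 27.5, 6.23 and 35.7 CPM, above spleen (19 CPM) in 3 of the 4 libraries.

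For the counts that follow, the shares over all tested genes were 23.1% higher and 5.31% lower, and lists this short cannot be told from them by a few calls. NK cell genes gave 3 higher and 1 lower of 9, all at low levels. Eomes, a factor of NK cells that include those of the uterus, stood at 2.67, 1.16, 4.15 and 7.66 CPM, and Gzma, a granule protease, at 0, 0.931, 0 and 5.10 CPM was lower than in the mean of the others. Mast cell genes were higher in 4 of 6, with Tpsb2, a tryptase, at 3.15 to 6.81 CPM beside 17.2 CPM in skin. Neutrophil genes gave 2 higher and 2 lower of 10. The calprotectin gene S100a9 stood at 79.01, 18.4, 18.7 and 0 CPM beside 20196 CPM in bone marrow, and Retnlg, a secreted protein of neutrophils, at 7.27, 5.12, 20.8 and 51.05 CPM. Retnlg was called higher, and not without replicate 4. Of the 10 members 5 were highest in replicate 1 and 4 in replicate 4, where Lcn2 and Ltf were also highest. The neutrophil list summed to 166, 50.5, 62.3 and 79.1 CPM. Ngp and Camp, which neutrophils make in the marrow, had 1 read each in the tract. Which cells the Ltf and Lcn2 reads of replicate 4 came from was not tested. The eosinophil list summed to 4.15 to 11.9 CPM, and none of its 8 genes was called with edgeR, also none at an unadjusted p under 0.05, while DESeq2 called 1 lower, voom with library weights 3 and voom with tissue weights 1. Endothelial genes summed to 314 to 348 CPM and gave 1 higher of 9, and red cell genes gave 2 lower of 6.

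Genes of cells that a dissection could bring along were present as well. All 8 adipocyte genes were called higher and summed to 6225, 11695, 3001 and 4951 CPM, beside 9335 CPM in mesenteric lymph node, and replicate 2 was the highest library for each of them. Adipoq, the adipocyte hormone adiponectin, stood at 318, 626, 72.7 and 132 CPM. All 5 mesothelial genes were called higher, with Upk3b at 33.2 to 53.6 CPM beside 54.4 CPM in lung. The mesothelial list summed to 184 to 561 CPM in the tract, below colon (1799 CPM) and small intestine (1500 CPM). The tract mean was not the highest for any of its members. Bladder genes summed to 17.015 to 47.5 CPM, and Upk3a, a protein of the bladder lining, had reads only in replicate 2 (6.05 CPM). Intestinal genes gave 3 lower of 8 and summed to 14.1 to 28.9 CPM, and the regulators Cdx1 and Cdx2 had no read. Skeletal muscle genes gave 1 higher and 3 lower of 9 and summed to 25.4 to 129 CPM, against 14259 CPM in skin. Over all tested genes 23.1% were called higher and 5.31% lower.

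Digestive enzymes of the pancreas appeared in 1 tract library. The 12 genes, chosen after seeing the data, summed to 3.64, 4.19, 1678 and 11.9 CPM. Cela3b, an elastase, stood at 0, 0, 343 and 2.55 CPM, and Clps, the cofactor of pancreatic lipase, at 0, 0, 303 and 0.851 CPM. Both were called higher in the tract, and without replicate 3 neither was, with the direction turned (log2 fold changes -0.81 and -3.71). The list averaged 2533 ± 4863 CPM in spleen (7.95 to 9824 over its libraries) and 1945 ± 3473 CPM in colon (205 to 7155), so these means rest on single libraries, and 1043 ± 174 CPM in small intestine. The part of these other cells in the remaining results was not tested.

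Of 13 genes of dividing cells, 2 were called higher (against 23.1% of all tested genes), Top2a and Cenpe, and bone marrow was above the tract for all 13. Top2a, a topoisomerase of dividing cells, stood at 47.99, 86.1, 226 and 53.6 CPM, and the list summed to 170.1, 302, 575 and 193 CPM.

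The naming rule took the 8 genes with the most negative fold change among those with at least 50 CPM in the arithmetic mean of the others and with all 14 tissue means above the highest tract library. This leaves out marrow and B cell genes that some other tissues nearly lack. Myl2, the ventricular myosin light chain, had no read in the tract and averaged 19460 CPM in heart. The tract was at least 4686-fold lower than the arithmetic mean of the others (its level set to 3 counts summed over its libraries). Heart sets that mean, since liver came next at 12.8 CPM and the median other library held 4.73 CPM. Fgb, a fibrinogen chain, and the iron hormone Hamp, both of liver, also had no read and were at least 2250.3-fold and 803-fold lower. Reg3g, an antibacterial lectin of the gut, and Hamp2 had no read either. Serpinc1, antithrombin, stood at 0.485, 0.233, 0 and 0 CPM beside 4197 CPM in liver. Slc6a19, an amino acid transporter, and Pgam2, a muscle enzyme, likewise had at most 1 read per library. Each of these 8 genes had its highest mean in heart, liver or small intestine. The calls of Reg3g and Hamp2 were lost when replicate 1 or replicate 2 was left out, that of Reg3g also without colon and lung, that of Hamp2 under both voom fits, and those of Reg3g and Fgb with voom tissue weights (limma adjusted p = 0.163 and 0.0588).

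Lower levels of widely expressed genes were seen too, in genes outside the naming rule and chosen after their values were seen. Retreg1, a receptor for turnover of the endoplasmic reticulum, stood at 13.8, 24.9, 6.23 and 11.9 CPM (log2 fold change -2.44, edgeR adjusted p = 1.51e-22). Eif1, a translation factor, stood at 205, 241, 102 and 185 CPM, and Ubb, a ubiquitin gene, at 132, 123, 45.7 and 95.3 CPM. Every other library of the series was above these values. Gapdh, the glycolytic enzyme often used as a reference, stood at 108, 135, 10.4 and 21.3 CPM, and was itself called lower and uneven among the tract libraries.

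Against single tissues, the tract had its highest median correlations with skin, lung and mesenteric lymph node and its lowest with brain. Spearman's rho of log2(CPM + 1), taken as the median over 16 pairs of libraries, was 0.7998 with skin, 0.795 with lung, 0.792 with mesenteric lymph node and 0.622 with brain. The ranges over the pairs overlapped for the first 3 (0.736 to 0.831 for skin and 0.721 to 0.8203 for lung), so their order is not resolved. Ranges of further tissues overlapped these too, such as heart (0.715 to 0.808) and kidney (0.703 to 0.799), so the first 3 are not a resolved group. By pairwise tests kidney (6848 genes) differed from the tract in fewer genes than lung (6942). In pairwise tests 5493 genes differed from skin (3002 higher and 2491 lower in the tract) and 8839 from blood (5449 and 3390). Blood and brain stood at the far end in both measures, and genes higher in the tract outnumbered those lower in each of the 14 comparisons.

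**Figure D5:**
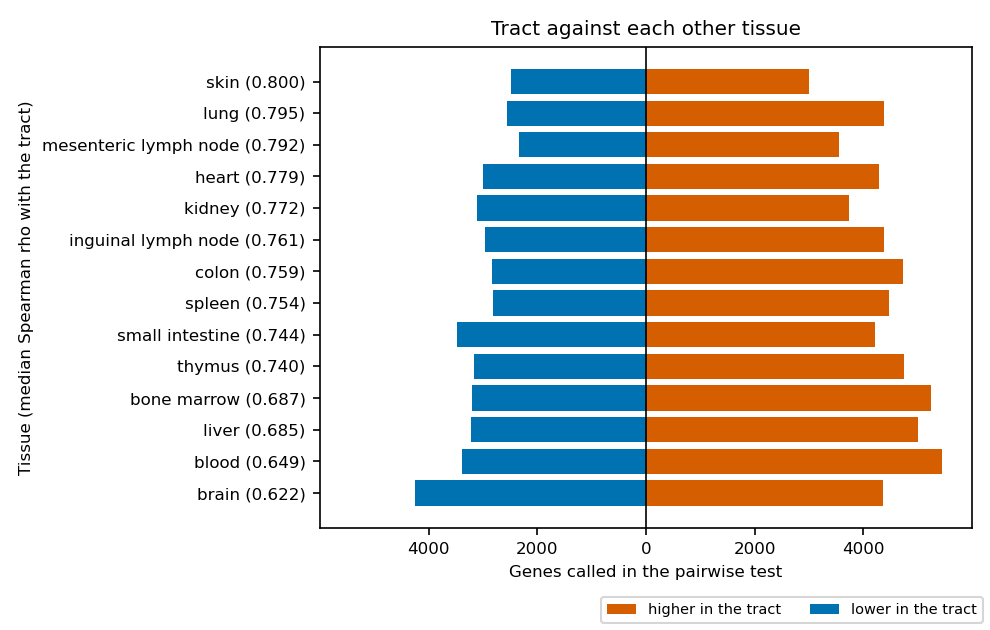
Number of genes called higher (right, orange) and lower (left, blue) in the tract than in each other tissue, ordered by the median Spearman rho with the tract (in brackets). The count of differing genes is smallest for skin (5493) and largest for blood (8839), and the bars to the right are the longer ones for all 14 tissues.

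Among the 2813 tested genes with at least 50 CPM in the tract, 295 differed more than 4-fold between the lowest and highest tract library on the scale of CPM + 1. The highest library was replicate 4 for 128 of these genes, replicate 2 for 79, replicate 3 for 67 and replicate 1 for 21. The lowest was replicate 3 for 140, replicate 2 for 58, replicate 4 for 50 and replicate 1 for 47. The 12 genes with the widest range were Krt16, Prap1, Krt6a, Cela3b, Sprr2f, Clps, Ptgs2, Lcn2, Cela1, Krt14, Krt5 and Aoc1. They are 4 keratins of squamous epithelium, 5 genes that were highest in replicate 4 and 3 pancreatic enzymes that were highest in replicate 3.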

How the data were processed

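Whole-tissue RNA of 15 tissues, 4 mice each, was measured by 3' RNA sequencing. The authors deposited raw read counts for 54532 genes. Per the submitters' processing notes FastQC, STAR, featureCounts and the mm10 build were used. Neither versions nor the strand setting is stated there. All 54532 rows carry a gene identifier, and 54495 matched GENCODE M21 (GRCm38).

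Counts of all 60 libraries were fitted in edgeR 4.0.16 (R 4.3.3) with 1 term per tissue, TMM factors and filterByExpr (minimum count 10, minimum total 15), which left 18562 genes. The tract was tested against the equally weighted mean of the other 14 tissues and against each of them. Alternatives were DESeq2 1.42.0, limma 3.58.1 (voom with weights for libraries or for tissues), other scaling, no filter, a replicate block, leaving out single tract libraries, and leaving out colon and lung, which were the tissues with the least mitochondrial ribosomal RNA. On simulated counts for 18562 genes in this comparison, 94% of genes changed 3-fold and 100% of those changed 6-fold were recovered, with 6 calls among the unchanged genes. The simulation gave all tissues the same mean profile and all genes the same spread (dispersion 0.1). It changed only genes with more than 10 expected counts at median depth. These rates therefore do not cover genes without reads in a tissue, or the wider spread of the tract libraries.

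The members and the gene lists were chosen with earlier results of these data known. The collagen VI and pancreas lists, and leaving out replicates 3 and 4 together, were chosen after seeing the data. Genes were named by rule: the 15 leading and 8 lowest genes, up to 4 called members of each list by fold change and those called against its majority, the 12 widest ranges, the 3 markers, and members of the Hox, receptor, oocyte and oestrogen lists. Other list members and Retreg1, Eif1, Ubb and Gapdh lie outside that rule. Intervals and limits from counts cover counting error only. Nothing states that the replicates of a tissue came from separate preparations beyond their label as mice, so p-values measure the spread between these libraries. Results for some list members are not reported here.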

Additional observations from a re-analysis of the deposited data

Results flagged for a closer look

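In each group of 4 tract libraries, the gap of the highest or lowest library to its nearest neighbour was set against the whole range (Dixon's test at 95%, which chance passes in about 1 of 20 groups). Of 107 named genes, 26 passed, and of 34 list sums, 4 passed. These shares cannot be read against 1 in 20, since 12 of the genes were named for their wide range, the collagen VI and pancreas lists were chosen after seeing the data, and a gene with reads in 1 library passes by construction. Replicate 4 was the high library for 13 of the genes, replicate 3 for 8 and replicate 2 for 4, and replicate 3 was the low library for 1.

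Replicate 4 stood alone for the summed oestrogen-regulated genes (17923 CPM) and the summed mucosal defence genes (16990 CPM). Its single genes were Lcn2 (6194 CPM), Prap1 (5324 CPM), C3 (4589 CPM), Ltf (3065 CPM), Sprr2f (2982 CPM), Aoc1 (284 CPM), Sprr2b (220 CPM), Ptgs2 (198 CPM), Muc4 (138 CPM), Sprr2a3 (97 CPM), Sprr2g (80.8 CPM), Sprr2e (2.55 CPM) and Camp (0.851 CPM, a single read).

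Replicate 3 stood alone for the summed collagen VI chains (4822 CPM) and the summed pancreatic enzymes (1678 CPM). Its single genes were Col6a3 (922 CPM), Krt16 (827 CPM), Ramp3 (386 CPM), Cela3b (343 CPM), Clps (303 CPM), Cela1 (224 CPM), Slc25a48 (166 CPM) and Hoxd8 (60.2 CPM), and on the low side Nr2f2 (125 CPM). Replicate 2 stood alone for Amhr2 (17 CPM), Figla (0.698 CPM), and for Ngp and Slc6a19 at 0.233 CPM, which is a single read.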

How the results depend on the processing

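The count of genes called higher (4284) became 6768 with no filter on low counts. The count of genes called lower (986) became 411 with library totals without TMM and 1738 with voom library weights, where the share of calls that were higher fell from 81.3% to 65.8%. Genes higher than each other tissue (157) became 258 with library totals. No gene called in 1 direction was called in the other under any of the 14 alternatives, counts of higher and lower genes ranged from 2877 to 6768 and from 411 to 1738, and leaving out single tract libraries gave 4318 to 4625 and 798 to 953.

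Among list counts, oocyte genes called higher (5) became 19 with no filter and 14 without replicates 3 and 4, and MHC class II genes called lower (7) became 3 with library totals and 4 without replicates 3 and 4. With library totals the counts became 5 for NK cells, 4 for neutrophils, 6 for endothelium and 5 for dividing cells (higher), and 1 for skeletal muscle and 1 for red cells (lower). With voom library weights they became 0 for NK cells, 0 for neutrophils, 1 for dividing cells, 1 for skeletal muscle and 1 for red cells. With voom tissue weights they became 0 for NK cells, 0 for neutrophils, 2 for mast cells, 1 for dividing cells, 0 for skeletal muscle, 1 for intestine and 1 for red cells. At an unadjusted p under 0.05 the voom counts of 0 also stood at 0, while DESeq2 called 4 NK cell, 2 neutrophil and 1 skeletal muscle genes. With DESeq2's Wald test they became 2 for endothelium, 5 for dividing cells, 1 for skeletal muscle and 5 for intestine. Without colon and lung they became 4 for endothelium and 1 for dividing cells. Without replicates 3 and 4 they became 1 for red cells and 1 for dividing cells. Leaving out single tract libraries gave 1 to 2 for neutrophils, 1 to 2 for endothelium, 1 to 3 for skeletal muscle, 1 to 2 for red cells and 1 to 5 for dividing cells. The causes were not tested.

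Directions turned for the pancreatic genes, for which leaving out single tract libraries gave -0.81 to 6.81 (Cela3b), -3.71 to 4.88 (Clps) and -2.55 to 1.49 (Cela1). The log2 fold change of Cela3b became -0.42 with voom library weights, -0.81 without replicate 3 and -3.84 without replicates 3 and 4. For Clps it became -1.94 and -0.067 with voom library and tissue weights, -3.71 without replicate 3 and -5.46 without replicates 3 and 4. For Cela1, not called, it became -1.87 and -1.65 with the voom weights, -2.55 without replicate 3 and -2.48 without replicates 3 and 4. For Retnlg it became -0.089 without replicates 3 and 4. For Hoxd13, with no read in the tract, it became 0.0017 with DESeq2 and 0.075 with voom tissue weights.

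The labels do not say whether replicate numbers pair the libraries. Of 56 correlations between a tract library's deviations and those of the same number elsewhere, 3, all with thymus, were above 0.1 (median 0.0132), so the libraries were treated as sharing only a number, and 3 of 4 tract libraries were nearest their own number. With the replicate block 4283 genes were called higher and 979 lower, and 147 were higher than each other tissue. Depth limits replicate 3 most, where 3 counts are 8.48 CPM.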
